A study of Mus musculus with 9 samples.

Results

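RNA was sequenced from the livers of mice that had ischaemic postconditioning (IPO), ischaemia-reperfusion (IR) or sham surgery, with 3 libraries in each group. All mice were C57BL/6, the inbred laboratory strain, 8 weeks of age, and no other genotype, sex or drug is given. In IR the blood supply of the liver is stopped and then restored, and in IPO the returning flow is additionally interrupted for short spells. Not given in the sources used here are the durations, the time of sampling and whether each library is a separate mouse, and a p-value therefore reflects only how far these libraries differ, possibly for technical reasons. The loci described here are transcribed regions that the authors list outside their gene table and that lie on the strand opposite to a listed gene. A locus was taken if it lay on chromosomes 1 to 19, averaged at least 1 FPKM (fragments scaled by length and library size) over the 9 libraries, overlapped a listed gene by at least 1 base on the opposite strand and overlapped none on its own strand. This rule used only position, strand and mean level. It gave 722 of the 10199 loci listed, and they overlapped 701 genes, called sense genes below. The members just inside the limit averaged 1.00034, 1.00043 and 1.001 FPKM, over Aldh1a7, Ndufs6 and C8g, and the loci just outside it averaged 0.999752, 0.998574 and 0.99783 FPKM, over Zscan29, Chp1 and Mif. Each locus carries an identifier that starts with MSTRG, and coordinates are those of mm10.

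Many mammalian genes have a transcript on their other strand. Such natural antisense transcripts include long non-coding RNAs that start from the same promoter region as the gene and run away from it, RNAs that start beyond the gene and run back into it, and short RNAs from inside introns. Individual antisense RNAs are known to silence, stabilise or accompany the transcript of the sense gene, and most have no known role. Reading them needs a library that keeps the strand, because a small part of the fragments of an abundant transcript can be assigned to the wrong strand. The kit is stranded per the labels' protocols, and with the strand setting of the count step not given in the sources used here, signal on the opposite strand of a gene cannot be told apart from fragments of the gene itself.

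Of the 722 loci, 28 began within 250 bases of a transcription start that RefSeq annotates on the same strand, and 4 of those are described below with their values. Their start regions are shown because they are loci with an annotated transcript of their own. Each window runs from 250 bases before the RefSeq start to 50 bases into the transcript (GRCm38, 5′ to 3′, minus strand), and capitals mark the bases that lie inside the deposited locus.
Gm49668, antisense to Fam120b (MSTRG.9441), chr17:15434807-15435106: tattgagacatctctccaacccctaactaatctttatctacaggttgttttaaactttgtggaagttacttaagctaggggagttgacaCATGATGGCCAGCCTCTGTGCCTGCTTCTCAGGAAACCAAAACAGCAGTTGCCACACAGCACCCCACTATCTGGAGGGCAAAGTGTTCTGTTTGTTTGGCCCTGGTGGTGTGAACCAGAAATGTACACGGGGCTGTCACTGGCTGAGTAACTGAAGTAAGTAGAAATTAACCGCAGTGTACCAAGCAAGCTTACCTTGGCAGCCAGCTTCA
Lppos, antisense to Lpp (MSTRG.8857), chr16:24393606-24393905: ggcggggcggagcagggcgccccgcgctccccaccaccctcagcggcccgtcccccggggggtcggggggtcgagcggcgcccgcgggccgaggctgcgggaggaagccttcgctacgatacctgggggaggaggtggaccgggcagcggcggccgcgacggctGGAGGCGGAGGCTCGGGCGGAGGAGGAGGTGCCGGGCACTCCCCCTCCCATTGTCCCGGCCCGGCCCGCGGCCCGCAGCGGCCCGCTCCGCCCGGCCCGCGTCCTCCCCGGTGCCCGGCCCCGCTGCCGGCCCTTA
Gm19522, antisense to Zbtb20 (MSTRG.9046), chr16:42912021-42912320: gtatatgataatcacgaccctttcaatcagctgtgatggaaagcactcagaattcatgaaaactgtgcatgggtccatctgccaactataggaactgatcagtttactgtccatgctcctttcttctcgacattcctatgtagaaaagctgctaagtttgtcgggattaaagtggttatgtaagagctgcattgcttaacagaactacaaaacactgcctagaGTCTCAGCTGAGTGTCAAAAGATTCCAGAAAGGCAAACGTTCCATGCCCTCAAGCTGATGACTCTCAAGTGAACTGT
Hnf4aos, antisense to Hnf4a (MSTRG.13666), chr2:163541672-163541971: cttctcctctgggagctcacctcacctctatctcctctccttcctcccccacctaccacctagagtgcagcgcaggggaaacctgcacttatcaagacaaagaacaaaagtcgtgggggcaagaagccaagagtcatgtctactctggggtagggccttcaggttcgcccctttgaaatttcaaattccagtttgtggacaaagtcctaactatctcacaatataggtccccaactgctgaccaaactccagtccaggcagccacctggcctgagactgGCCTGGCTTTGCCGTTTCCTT
The deposited loci began at positions -161, -86, -27 and 29 relative to these RefSeq starts, in the order printed. The Lppos window held 43 CG dinucleotides, against 2 in the Gm49668 window and 4 in each of the Gm19522 and Hnf4aos windows. Over the 28 windows the median was 6.5 CG, and it was 7 over all 32851 RefSeq windows of the same length. On either strand, the AP-1 site TGACTCA stood in 1 of the 28 windows (3.57%, against 5.20% of all RefSeq windows). The STAT site TTCNNNGAA stood in 2 (7.14%, against 8.30%), the E-box CACGTG in 2 (7.14%, against 7.15%) and the TATA box TATAAA in 2 (7.14%, against 13.6%). These searches are independent of one another, and none of the 4 motifs stood in the 4 windows printed.

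The loci were long and mostly inside genes. Their spans ran from 200 to 286159 bases with a median of 5418. By position, 413 loci lay inside the sense gene, 138 covered its end, 106 covered its start and 65 spanned the whole gene. Only introns of the sense gene were covered by 86 loci, and in 181 at least 50% of the bases that overlapped the gene lay in its exons (GENCODE M21). On their own strand, 579 loci overlapped no GENCODE gene, and the other 143 overlapped one that is absent from the deposited gene table. Of those 143, GENCODE classes 57 as antisense RNA, 21 as lincRNA, 24 as pseudogenes and 15 as protein-coding genes, with the rest in other classes. Values over pseudogenes are uncertain because reads are shared with the parent gene. More than 1 locus lay over 18 genes, which together carried 39 loci, and 23 loci overlapped more than 1 gene on the opposite strand. The sense gene was then the gene with the most overlapping bases.

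Most of the abundant liver genes carried an antisense locus of at least 1 FPKM. The sense genes had a median of 75.9 FPKM, against 5.85 FPKM for all 9649 genes whose mean reached 1 FPKM. Of 461 autosomal genes whose mean reached 100 FPKM, 69.4% carried a locus. The share was 11.9% of 1398 genes between 20 and 100 FPKM, 3.26% of 3280 between 5 and 20, 1.96% of 4244 between 1 and 5 and 1.59% of 1513 below 1. Over the genes of at least 100 FPKM, 326 loci lay at a narrow fraction of the sense gene, with a median of 0.833% (quartiles 0.614% and 1.25%, range 0.256% to 5.39%). Over less abundant genes the median was 3.17% (20 to 100 FPKM), 12.3% (5 to 20), 86.5% (1 to 5) and 450.2% (below 1). The limit of 1 FPKM on the locus sets the lowest fraction that each class can show. It also bears on the share of genes with a locus, since a locus at a small fraction reaches it only over an abundant gene. The part of this limit in the rise of that share with gene level was not tested. Locus and gene values come from separate tables, which may not have been scaled by the same library size.

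**Figure D1:**
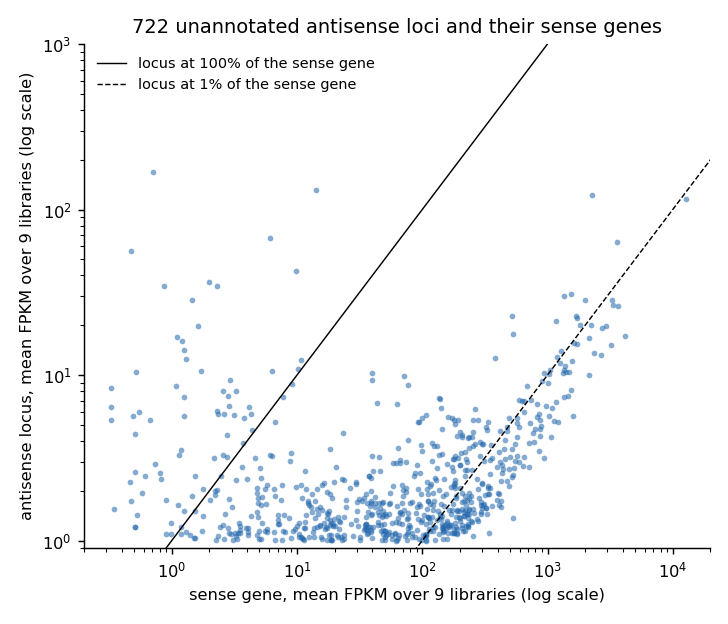
Mean FPKM of each of the 722 antisense loci over the 9 libraries against the mean FPKM of its sense gene, both on log scales; each point is a locus, the solid line marks a locus at 100% of its sense gene and the dashed line a locus at 1%. Above about 100 FPKM of the sense gene the points gather along the 1% line (median 0.833%), and below it they spread along the lower limit of 1 FPKM or lie far above the 1% line.

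The loci at the top of the range fell into both kinds. The highest mean belonged to a locus inside Camk2b, a subunit of a calcium-dependent protein kinase (MSTRG.3065, chr11:6005652-6011510, plus strand, introns only), with 228, 168 and 48.3 FPKM in the IPO livers, 76.9, 95.9 and 108 FPKM in the IR livers, and 318, 307 and 174 FPKM in the sham livers. Its sense gene stayed between 0.0878 and 1.82 FPKM, and at the locus the IR libraries were all below the sham libraries without passing (limma adjusted p = 0.0903). A locus inside Cep85, a centrosomal protein gene (MSTRG.16575, chr4:134159389-134165098, plus strand), had 107, 204 and 201 FPKM in the IPO livers, 20.1, 81.7 and 129 FPKM in the IR livers, and 168, 139.7 and 136 FPKM in the sham livers. Its IR libraries were below its sham libraries without passing (limma adjusted p = 0.172), IPO overlapped both, and the locus stood at 921% of its sense gene. The loci over the plasma protein genes Alb (albumin, MSTRG.17811), Apoe (MSTRG.20654) and Apoa1 (MSTRG.24252) averaged 116, 122 and 63.5 FPKM, which was 0.911%, 5.34% and 1.78% of their sense genes. The other 5 of the 10 highest were over Cpsf2, Tbc1d9, Chd1, Entpd1 and Naaladl2, from 34.6 to 67.1 FPKM, each above its sense gene. Of these 10, the locus over Tbc1d9 passed a test, with a fall in IPO relative to IR (log2 fold change -0.83 ± 0.24, s.e.; limma adjusted p = 0.0399). That call was lost when any library other than IR replicate 2 or sham replicate 3 was left out (limma adjusted p from 0.0505 to 0.129).

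The sham libraries differed among themselves in antisense signal. Over sense genes of at least 100 FPKM, the median antisense level was 0.704%, 0.739% and 0.706% of the sense gene in the IPO libraries, 0.856%, 0.682% and 0.685% in the IR libraries, and 1.16%, 1.21% and 0.685% in the sham libraries. Sham replicates 1 and 2 were the 2 highest of all 9 at 201 of the 326 loci (61.7%), and sham replicate 3 was among the low libraries. The summed FPKM of all 722 loci was also highest in these 2 libraries, with 2987, 3179 and 2907 in IPO, 3389, 2614 and 2755 in IR, and 4234, 4346 and 2792 in sham. Over sense genes between 5 and 20 FPKM the medians lay between 12.1% and 13.8% in every library. The part of this library difference in the comparisons with sham was not tested, and each of them is given below with and without sham replicates 1 and 2. Depth and counting error are unknown, since the files hold no counts.

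**Figure D2:**
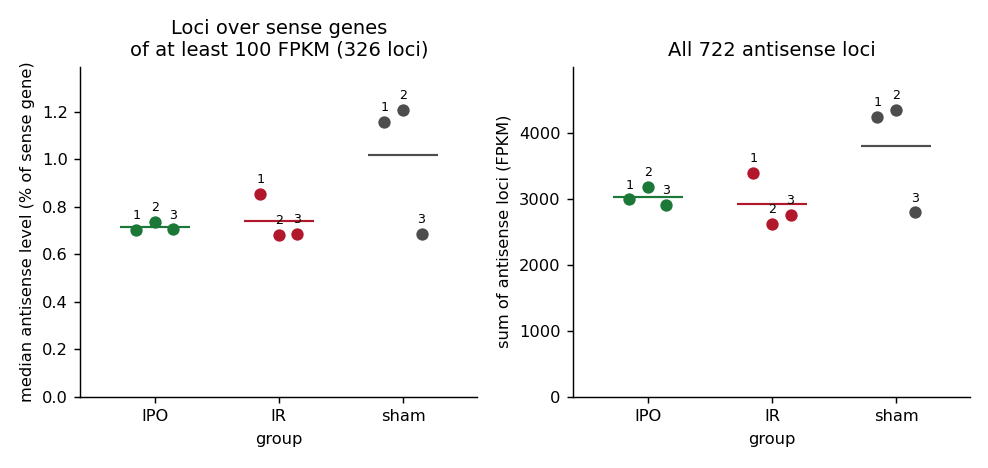
Left, median antisense level as a percentage of the sense gene over the 326 loci with a sense gene of at least 100 FPKM; right, summed FPKM of the 722 loci. Each numbered point is a library and each line a group mean; sham replicates 1 and 2 (1.16% and 1.21%) stand above the other 7 libraries in both panels.

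The labelled tissue matched its markers. The summed hepatocyte markers ran from 14958 to 27212 FPKM over the 9 libraries, with all 6 of them detected. Summed neutrophil markers were 41.1 to 114 FPKM in IPO, 8.55 to 61.3 in IR and 54.7 to 78.8 in sham, and summed Kupffer cell markers were 108 to 124 FPKM in IPO, 102 to 340.0 in IR and 89.2 to 123 in sham. Summed endothelial markers were 25.3 to 28.1 FPKM in IPO, 33.97 to 51.4 in IR and 21.1 to 33.5 in sham. Among the cell types summed, the endothelial markers alone had every IR library above all others. Summed lymphocyte markers were 0.306 to 0.476 FPKM in IPO, 0.611 to 9.07 in IR and 0.813 to 1.63 in sham. Every IPO library was below all others in that sum. No marker of the neutrophil, Kupffer, endothelial, stellate, cholangiocyte or lymphocyte lists was a sense gene of a locus. Less abundant genes carried a locus less often, with 69.4% of autosomal genes of at least 100 FPKM against 3.26% of those between 5 and 20. Of 3 erythroid markers 2 were sense genes, with a summed level of the list of 231 to 332 FPKM in IPO, 343 to 736 in IR and 236.5 to 505 in sham. The part of these cell types in the results was not tested, and in whole liver fewer cells of a type cannot be told apart from less RNA per cell.

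Set against sham livers, more antisense loci fell than rose in IR livers, and the share that fell was close to that over all loci. The 5 largest falls lay over genes on the acute phase list. That list holds genes of plasma proteins of inflammation and also others, such as the metallothionein gene Mt1. The 10 largest falls also included loci over Sdhc, Gpr108 and Cxcl1, which are not on the acute phase list. With limma on log2(FPKM + 0.5), 8 loci rose and 70 fell of 722 at an adjusted p under 0.05, or 1.11% and 9.70%, where 3.31% and 9.33% of all 5779 loci of at least 1 FPKM were called in those directions. The median log2 fold change was -0.19 over the 722 loci and -0.09 over all 5779. Of the sense genes, 28 rose and 56 fell among 677 that could be fitted, where 3.86% and 7.64% of all genes were called. The sense gene fell as well at 28 of the 70 loci that fell, was not called at 36, rose at 1 and was not fitted at 5. With 1 library left out, the 78 calls at loci became 22 (sham replicate 1), 24 (sham replicate 2), 122 (sham replicate 3), 46 (IR replicate 1), 39 (IR replicate 2) or 47 (IPO replicate 3). The 84 calls at sense genes became 40 (sham replicate 1) or 36 (sham replicate 2). Without sham replicates 1 and 2 together, 1 locus and 6 sense genes were called, and the median over the loci was 0.09.

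Acute phase genes were the list with most antisense loci that changed. Of the 31 genes listed, 25 carried 26 loci, at a median of 0.777% of the sense gene. In IR relative to sham, 19 of the 26 loci and 21 of the 25 sense genes fell and none rose, with median log2 fold changes of -1.95 and -1.43. Of all 5779 loci 9.33% and of all 9649 genes 7.64% were called lower in that comparison. The median level of the 26 loci was 6.73, 7.09 and 6.49 FPKM in the IPO libraries, 2.45, 1.57 and 1.42 FPKM in the IR libraries, and 12.8, 14.9 and 5.10 FPKM in the sham libraries. At 19 of them every IR library was below every sham library, and at 19 every IR library was below every IPO library. How many of all loci were without such overlap was not counted. The 19 falls became 8 when either sham replicate 1 or sham replicate 2 was left out, 12 when IR replicate 2 was, and 13 with the description number as a term. Without sham replicates 1 and 2 together it was 0 with limma (14 loci at an unadjusted p under 0.05, median -0.79), and 4 sense genes were called lower.

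The largest falls were over the serum amyloid genes Saa2 and Saa1, lipoprotein-bound acute phase proteins. The locus spanning Saa2 (MSTRG.21176, chr7:46751783-46754314, minus strand) had 25.7, 16.1 and 13.7 FPKM in the IPO livers, 0.202, 0.192 and 1.77 FPKM in the IR livers, and 66.2, 71.6 and 10.2 FPKM in the sham livers. Saa2 itself had 938, 512 and 519.9 FPKM in the IPO livers, 3.44, 2.24 and 68.3 FPKM in the IR livers, and 1109, 1132 and 372 FPKM in the sham livers. The IR libraries were the lowest at both, and sham replicate 3 lay below the IPO libraries. The log2 fold change of IR over sham was -5.17 ± 0.73 (s.e.) at the locus (limma adjusted p = 0.00415) and -6.42 ± 1.03 (s.e.) at the gene (limma adjusted p = 0.00709). The locus spanning Saa1 (MSTRG.21174, chr7:46740496-46742982, plus strand) fell at a log2 fold change of -4.53 ± 0.73 (s.e.) (limma adjusted p = 0.00635), and Saa1 fell at -5.19 ± 0.81 (s.e.). Saa1 and Saa2 lie on opposite strands, and the GENCODE transcripts Saa1-201 and Saa2-201, of 609 and 606 bases, are 93.9% identical. Reads may therefore be shared between both genes, or between both antisense loci, and these values are uncertain.

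Other acute phase loci followed their genes at a lower level. The locus spanning Serpina3n, a secreted protease inhibitor (MSTRG.5635, chr12:104406700-104414333, minus strand), had 7.21, 7.70 and 4.70 FPKM in the IPO livers, 0.852, 0.651 and 0.762 FPKM in the IR livers, and 15.5, 16.5 and 4.54 FPKM in the sham livers. Its sense gene had 1564, 1409 and 1209.7 FPKM in the IPO livers, 173, 170.5 and 214 FPKM in the IR livers, and 1688, 1548 and 840.3 FPKM in the sham livers, and at both the IR libraries were below all others. The log2 fold change of IR over sham was -3.15 ± 0.42 (s.e.) at the locus and -2.81 ± 0.25 (s.e.) at the gene (limma adjusted p = 0.00355 and 0.000587). Mt1 and Mt2, which encode metal-binding metallothioneins, carried loci (MSTRG.23287 and MSTRG.23283) that fell at log2 fold changes of -3.08 ± 0.58 (s.e.) and -2.58 ± 0.41 (s.e.) (limma adjusted p = 0.0122 and 0.00591). Lcn2, a protein that binds bacterial iron carriers, carried a locus over its end (MSTRG.12365) with 4.11, 2.13 and 2.90 FPKM in the IPO livers, 0, 0 and 0.304 FPKM in the IR livers, and 9.58, 6.31 and 0.915 FPKM in the sham livers. Here 2 IR libraries were listed at 0, sham replicate 3 lay below all IPO libraries, and the locus fell in the test (limma adjusted p = 0.0178). The loci over Steap4, a metalloreductase gene (MSTRG.17069), and, outside the list, Cxcl1, a neutrophil-attracting chemokine gene (MSTRG.17824), were listed at 0 in 2 and in all 3 IR libraries and also fell (limma adjusted p = 0.0167 and 0.00631). The falls over Mt1, Lcn2 and Steap4 were lost without sham replicate 1 or sham replicate 2 (limma adjusted p from 0.052 to 0.0711), and that over Lcn2 also without IR replicate 1 or IR replicate 2 (limma adjusted p = 0.0575 and 0.0554).

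Among the fibrinogen chains, the substrate of clotting, the locus inside Fga (MSTRG.14398, chr3:83026085-83033612, minus strand, 39.7% of its bases in exons) had 26.3, 20.2 and 22.0 FPKM in the IPO livers, 10.1, 6.90 and 5.36 FPKM in the IR livers, and 35.1, 38.3 and 17.0 FPKM in the sham livers. Fga had 3519.7, 2726 and 2878 FPKM in the IPO livers, 1125, 1167 and 809 FPKM in the IR livers, and 2728, 2739 and 2191 FPKM in the sham livers. The IR libraries were below all others at both, and the log2 fold changes were -1.91 ± 0.32 (s.e.) and -1.32 ± 0.17 (s.e.) (limma adjusted p = 0.00693 and 0.00358). The locus inside Fgb (MSTRG.14400) averaged 37.9 ± 3.80 FPKM in IPO, 14.2 ± 3.54 FPKM in IR and 40.7 ± 16.5 FPKM in sham (SD, n = 3 each) and fell in IR relative to sham at a log2 fold change of -1.41 ± 0.31 (s.e.) (limma adjusted p = 0.0217). That call was lost when IR replicate 2 or 3 or sham replicate 1 or 2 was left out (limma adjusted p from 0.0535 to 0.0864). The locus over Hp, the haemoglobin-binding haptoglobin (MSTRG.23488), had a log2 fold change of -1.05 ± 0.32 (s.e.) that did not pass (limma adjusted p = 0.0614), whereas Hp fell at a log2 fold change of -0.99 ± 0.17 (s.e.) (limma adjusted p = 0.00837).

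**Figure D3:**
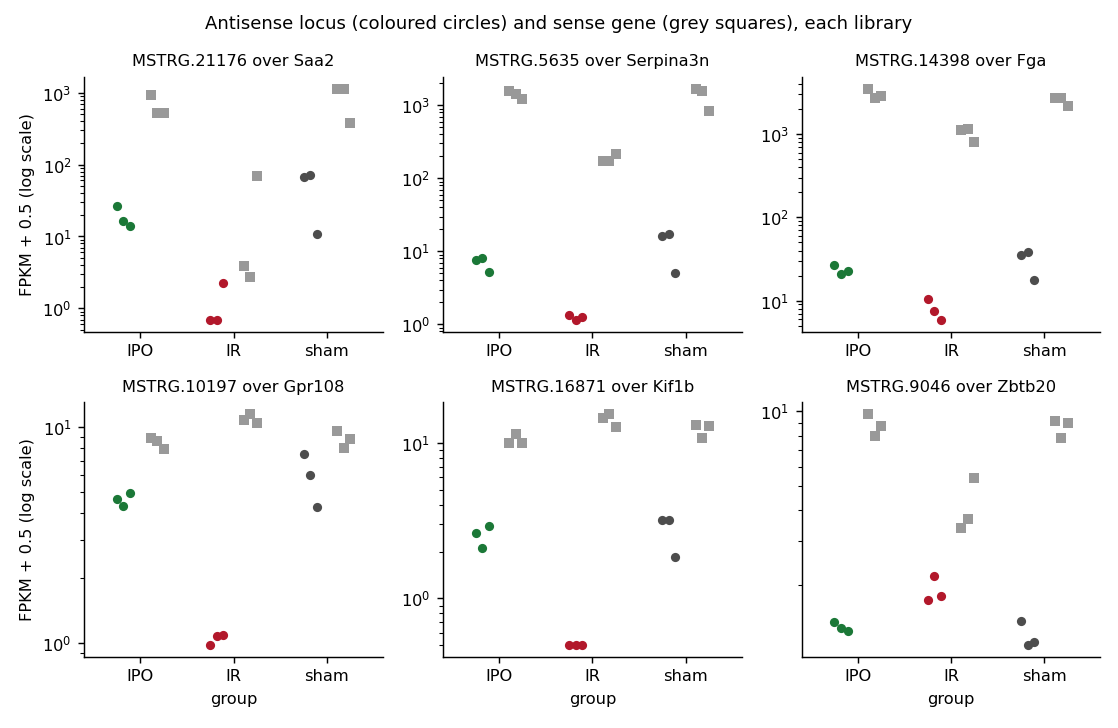
FPKM + 0.5 on log scales in every library at 6 loci (coloured circles) and their sense genes (grey squares), in IPO, IR and sham from left to right. Over Saa2, Serpina3n and Fga locus and gene are both lowest in IR; over Gpr108 and Kif1b the locus is lowest in IR while the gene is not, and over Zbtb20 the gene is lowest and the locus highest in IR.

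Some antisense loci fell in IR while the gene on the other strand was not called lower. The clearest spanned Gpr108, a membrane receptor gene (MSTRG.10197, chr17:57233266-57247844, plus strand, 17.2% of the bases over the gene in exons), with 4.14, 3.81 and 4.44 FPKM in the IPO livers, 0.477, 0.577 and 0.590 FPKM in the IR livers, and 7.01, 5.47 and 3.75 FPKM in the sham livers. Gpr108 had 8.42, 8.10 and 7.43 FPKM in the IPO livers, 10.3, 10.996 and 9.90 FPKM in the IR livers, and 9.05, 7.53 and 8.29 FPKM in the sham livers. All 3 IR libraries of the locus lay below all others, and at the gene all 3 IR libraries lay above all others. The log2 fold change of IR over sham was -2.46 ± 0.20 (s.e.) at the locus (limma adjusted p = 0.00112) and 0.31 ± 0.12 (s.e.) at the gene, which did not pass (limma adjusted p = 0.115). The ratio of locus to gene fell at a log2 fold change of -2.77 ± 0.19 (s.e.) (limma adjusted p = 0.00309). It was the locus still called without sham replicates 1 and 2. Inside Kif1b, a motor protein gene of axonal transport (MSTRG.16871, chr4:149288522-149294132, plus strand), the locus had 2.13, 1.62 and 2.44 FPKM in the IPO livers, 0, 0 and 0 FPKM in the IR livers, and 2.67, 2.67 and 1.34 FPKM in the sham livers. Since all IR libraries were listed at 0, no fold is given. The test called the locus lower in IR than in sham (limma adjusted p = 0.00142) and the ratio lower (limma adjusted p = 0.0293), whereas Kif1b had a log2 fold change of 0.22 ± 0.13 (s.e.) (limma adjusted p = 0.291). The call of the ratio over Kif1b was lost when any library other than sham replicate 3 was left out (limma adjusted p from 0.0504 to 0.094).

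A locus inside Sdhc, a subunit of mitochondrial succinate dehydrogenase (MSTRG.1444, chr1:171143233-171150591, plus strand), had 14.4, 11.032 and 12.8 FPKM in the IPO livers, 0.365, 1.64 and 2.92 FPKM in the IR livers, and 19.4, 25.2 and 5.19 FPKM in the sham livers. Its IR libraries were below all others, with a log2 fold change of -2.95 ± 0.60 (s.e.) relative to sham (limma adjusted p = 0.0158). Sdhc itself had a log2 fold change of -0.02 ± 0.12 (s.e.) with a 95% interval of -0.29 to 0.25. The ratio over Sdhc did not pass (log2 fold change -2.93 ± 0.61, s.e.; limma adjusted p = 0.127). Over the start of Rce1, a CAAX-protein endopeptidase gene (MSTRG.11127, chr19:4623279-4625771, plus strand), the locus averaged 7.56 ± 1.50 FPKM in IPO, 1.23 ± 0.522 FPKM in IR and 5.13 ± 3.08 FPKM in sham (SD, n = 3 each). Rce1 averaged 4.19 ± 0.241 FPKM in IPO, 5.67 ± 0.281 FPKM in IR and 3.32 ± 0.489 FPKM in sham (SD, n = 3 each). The locus fell in IR relative to sham (log2 fold change -1.59 ± 0.39, s.e.; limma adjusted p = 0.0304) and the gene rose (log2 fold change 0.70 ± 0.13, s.e.; limma adjusted p = 0.0124), the only pair called in opposite directions in that comparison. Its ratio did not pass (limma adjusted p = 0.127). The calls of the loci over Sdhc and Rce1 were lost without sham replicate 1 or sham replicate 2, that over Rce1 also without IR replicate 2 or IR replicate 3 (limma adjusted p from 0.061 to 0.0952), and the call of the gene Rce1 without sham replicate 1 (limma adjusted p = 0.0589).

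The 8 loci that rose in IR relative to sham had log2 fold changes from 0.75 to 1.58. Those over Pank1, the first enzyme of coenzyme A synthesis, and over Fads2, a fatty acid desaturase, both covered the gene start. The Pank1 locus (MSTRG.11585, chr19:34878146-34882213, plus strand) had 0.433, 0.550 and 0.636 FPKM in the IPO livers, 4.38, 2.36 and 2.02 FPKM in the IR livers, and 0.291, 0.602 and 1.03 FPKM in the sham livers. All its IR libraries were above all others, the log2 fold change was 1.58 ± 0.32 (s.e.) (limma adjusted p = 0.0152), and Pank1 itself had -0.12 ± 0.11 (s.e.) (limma adjusted p = 0.497). The Fads2 locus (MSTRG.11350, chr19:10089016-10101671, plus strand) averaged 1.41 ± 0.483 FPKM in IPO, 3.27 ± 1.31 FPKM in IR and 1.14 ± 0.469 FPKM in sham (SD, n = 3 each). It rose at a log2 fold change of 1.19 ± 0.31 (s.e.) (limma adjusted p = 0.0389), and Fads2 at 0.99 ± 0.18 (s.e.) (limma adjusted p = 0.0107). A locus inside Ptms, the parathymosin gene, which GENCODE lists as A230083G16Rik (MSTRG.20088), rose at a log2 fold change of 0.75 ± 0.13 (s.e.) and Ptms at 0.61 ± 0.13 (s.e.) (limma adjusted p = 0.00839 and 0.0183). Lppos, whose start region is printed above, had 2.04, 1.92 and 1.82 FPKM in the IPO livers, 4.83, 3.69 and 4.04 FPKM in the IR livers, and 1.41, 2.45 and 2.56 FPKM in the sham livers. Its IR libraries were the 3 highest, the log2 fold change was 0.85 ± 0.20 (s.e.) (limma adjusted p = 0.0272), and Lpp, which encodes a focal adhesion protein, had -0.15 ± 0.13 (s.e.) (limma adjusted p = 0.443). The other 4 lay over 2900026A02Rik, Nrp1, Manba and Cabyr, with log2 fold changes of 1.50, 1.37, 1.08 and 0.77. Of these genes, 2900026A02Rik, Nrp1 and Manba were not called and Cabyr was not fitted. Of the 8 rises, the loci over Ptms and 2900026A02Rik kept their call when any 1 library was left out. The call of the gene Ptms was lost without sham replicate 1 or sham replicate 2 and that of the gene Fads2 without sham replicate 2 (limma adjusted p = 0.0525, 0.0708 and 0.0505). The other 6 loci lost theirs when sham replicate 1 was left out, all of them but that over Manba for sham replicate 2, and those over Lpp, Manba, Fads2, Nrp1 and Cabyr for IR replicate 1. That over Cabyr lost it for each of the 9. IR replicate 2 had this effect for Lpp, Fads2 and Nrp1, IR replicate 3 for Manba and Nrp1, IPO replicate 3 for Fads2 and Nrp1 and IPO replicate 2 for Fads2, with limma adjusted p from 0.0506 to 0.15.

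Set against IR livers, IPO livers had more antisense loci that rose than fell, and both shares were below those over all loci. With limma, 53 of 722 loci rose and 23 fell, or 7.34% and 3.19%, where 11.9% and 8.03% of all 5779 loci were called. The median log2 fold change was -0.06, against 0.03 over all loci. Among 677 sense genes 75 rose and 78 fell, where 22.1% of all genes were called in either direction and 10.1% fell. Of the 53 loci that rose, the sense gene rose at 23, fell at 2, was not called at 24 and was not fitted at 4, and of the 23 that fell, it fell at 14, was not called at 8 and was not fitted at 1. With IPO replicate 1, 2 or 3 left out, the 76 calls at loci became 43, 45 or 50 and the 153 calls at sense genes became 73, 82 or 83. The sense gene calls were 99 when IR replicate 2 was left out. The locus calls were 81 without sham replicates 1 and 2, which enter this comparison only through the shared estimate of spread.

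The acute phase loci were again the most changed list. In IPO relative to IR, 14 of 26 loci and 21 of 25 sense genes rose and none fell, with median log2 fold changes of 1.43 and 1.57. The 14 rises became 9 when either IPO replicate 1 or IPO replicate 3 was left out. Among the loci named above, that over Steap4 lost its call without any of the IPO or IR libraries, those over Lcn2 and Cxcl1 lost theirs without IPO replicate 1, IPO replicate 3 or IR replicate 2, and that over Lcn2 also without IR replicate 1 (limma adjusted p from 0.0507 to 0.114). The locus over Fgb, called higher in IPO than in IR, lost that call without IPO replicate 1 or IPO replicate 2 (limma adjusted p = 0.0504 and 0.0517). At Saa2 the log2 fold change of IPO over IR was 4.15 ± 0.73 (s.e.) at the locus (limma adjusted p = 0.00606) and 6.12 ± 1.03 (s.e.) at the gene. The loci over Serpina3n and Mt1 rose at log2 fold changes of 2.46 ± 0.42 (s.e.) and 2.68 ± 0.58 (s.e.) (limma adjusted p = 0.00514 and 0.0138), and that over Serpina3m, a neighbouring inhibitor gene (MSTRG.5634), at 2.20 ± 0.34 (s.e.) (limma adjusted p = 0.00349). The locus over the end of Apcs, the serum amyloid P component (MSTRG.1506), had a log2 fold change of 1.87 ± 0.41 (s.e.), against 3.12 ± 0.45 (s.e.) for its gene, and the ratio fell at -1.25 ± 0.17 (s.e.) (limma adjusted p = 0.04). The call of that ratio was lost when any library other than sham replicate 3 was left out (limma adjusted p from 0.058 to 0.133), and that of the locus without IPO replicate 3 (limma adjusted p = 0.0521). Because 2 IR libraries of this locus were listed at 0, that ratio depends on the added 0.5 FPKM.

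The loci over Gpr108, Kif1b, Sdhc and Rce1 were higher in IPO than in IR as well. The Gpr108 locus rose at a log2 fold change of 2.14 ± 0.20 (s.e.) and its ratio at 2.50 ± 0.19 (s.e.) (limma adjusted p = 0.000501 and 0.00911). The Kif1b locus was called higher, with all IR libraries listed at 0, and Kif1b was called lower at a log2 fold change of -0.44 ± 0.13 (s.e.) (limma adjusted p = 0.000786 and 0.0388). The call of the gene was lost when any IPO library, IR replicate 1 or 2 or sham replicate 1 was left out, with limma adjusted p from 0.0539 to 0.121. That of the ratio was lost for the same libraries except IPO replicate 2, with limma adjusted p from 0.0518 to 0.0892. The Sdhc locus rose at a log2 fold change of 2.83 ± 0.60 (s.e.) and the Rce1 locus at 2.25 ± 0.39 (s.e.) (limma adjusted p = 0.0125 and 0.00536). Over the start of Ptpn2, a phosphatase of cytokine receptor signalling (MSTRG.10953, chr18:67723520-67726709, plus strand), the locus had 3.10, 3.76 and 2.88 FPKM in the IPO livers, 0.107, 0.211 and 0.193 FPKM in the IR livers, and 2.73, 1.35 and 0.753 FPKM in the sham livers. The IR libraries lay below all others, and both the locus and Ptpn2 rose in IPO relative to IR, at log2 fold changes of 2.48 ± 0.32 (s.e.) and 1.83 ± 0.15 (s.e.) (limma adjusted p = 0.00157 and 0.000305). An intronic locus of 208 bases in Wrap53, a telomerase cofactor gene (MSTRG.3711), rose at a log2 fold change of 1.06 ± 0.24 (s.e.) while Wrap53 fell at -0.66 ± 0.14 (s.e.) (limma adjusted p = 0.0162 and 0.0113), and the rise was lost without IPO replicate 3 (limma adjusted p = 0.0615).

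Of the 10 largest falls in IPO relative to IR, 6 are described here. The largest was over Txnip, a glucose-responsive inhibitor of thioredoxin (MSTRG.14723, chr3:96555788-96566801, minus strand, listed in GENCODE as Gm15441), with 0.0236, 1.06 and 1.12 FPKM in the IPO livers, 40.6, 5.11 and 4.24 FPKM in the IR livers, and 4.14, 4.13 and 0.537 FPKM in the sham livers. IR replicate 1 stood far above every other library, and without it the other 2 IR libraries were still above the rest. The log2 fold change was -3.23 ± 0.89 (s.e.) (limma adjusted p = 0.0339), beside -2.57 ± 0.21 (s.e.) for Txnip. Without IR replicate 1 it was -2.23 and did not pass (limma adjusted p = 0.0728), nor did it without any 1 of the IPO libraries (limma adjusted p from 0.0631 to 0.115). The locus over Herpud1, an endoplasmic reticulum stress gene (MSTRG.23305), fell at a log2 fold change of -1.45 ± 0.40 (s.e.) and that over Pck1, the gluconeogenic enzyme (MSTRG.13824), at -1.38 ± 0.20 (s.e.) (limma adjusted p = 0.0325 and 0.00241). Both sense genes fell too, at log2 fold changes of -2.16 and -1.21. Loci over Cth, a cysteine synthesis gene (MSTRG.15346), and Acsl1, a fatty acid activation gene (MSTRG.22780), fell at -1.18 and -1.08 (limma adjusted p = 0.0246 and 0.00772) beside -1.05 and -0.78 for their genes (limma adjusted p = 0.00955 and 0.0444), whereas that over the start of Hist1h2bc, a histone gene (MSTRG.5937), fell at a log2 fold change of -1.33 ± 0.32 (s.e.) (limma adjusted p = 0.0197) and the gene had -0.29 ± 0.17 (s.e.) (limma adjusted p = 0.256). The loci over Herpud1, Cth and Hist1h2bc lost their calls when IPO replicate 1 or IR replicate 1 was left out, those over Herpud1 and Cth also for IPO replicate 2, and that over Herpud1 for IPO replicate 3 and IR replicate 2 (limma adjusted p from 0.0577 to 0.0934). The gene Acsl1 lost its call when any library other than IR replicate 3 was left out (limma adjusted p from 0.0547 to 0.144). The loci over Pank1 and 2900026A02Rik, which had risen in IR, fell in IPO relative to IR at log2 fold changes of -1.66 and -1.65 (limma adjusted p = 0.00829 and 0.00195).

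Called in both comparisons were 44 loci, of which 39 were lower in IR than in sham and higher in IPO than in IR, 5 were the reverse and none had the same direction. How many of all loci were called in both was not counted. Whether this split is particular to antisense loci therefore cannot be told. Both comparisons share the IR libraries. Across pairs of locus and sense gene, the log2 fold changes correlated with r = 0.61 for IR against sham and r = 0.65 for IPO against IR over 695 pairs, as a description of pairs that come from the same 9 libraries. Over sense genes of at least 100 FPKM, r was 0.88 and 0.90 over 326 pairs, and without sham replicates 1 and 2 the first was 0.77. It was 0.34 and 0.54 over 171 pairs with sense genes of 20 to 100 FPKM, 0.20 and 0.34 over 109 pairs of 5 to 20 FPKM, and 0.13 and 0.17 over 89 pairs of 1 to 5 FPKM. In the introns-only class r was 0.0026 and 0.18 over 70 pairs, and in loci with some exon bases it was 0.67 and 0.71 over 625 pairs.

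**Figure D4:**
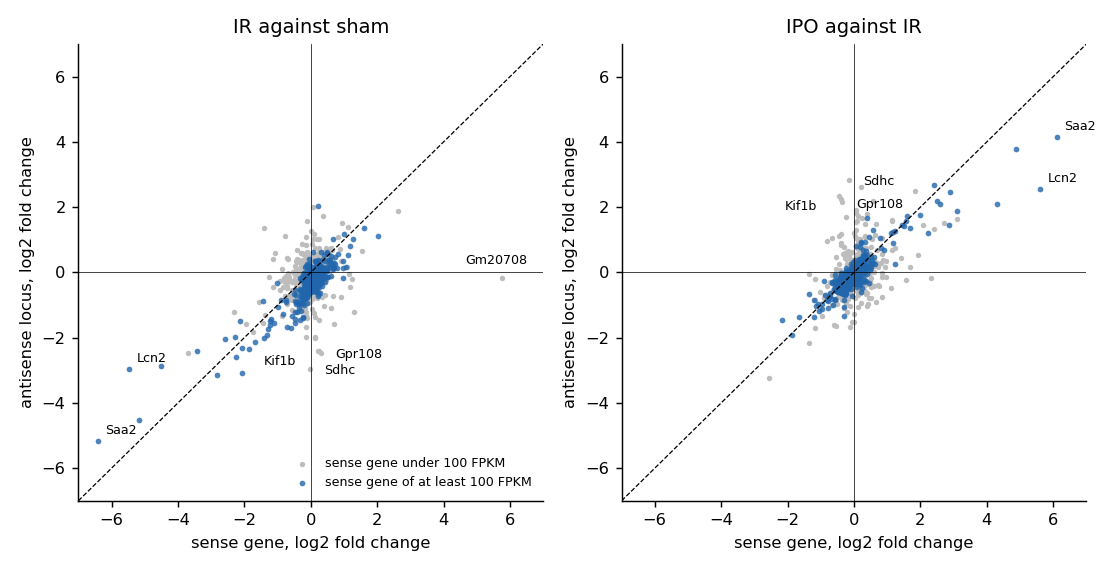
Log2 fold change of each antisense locus against that of its sense gene, for IR against sham on the left and IPO against IR on the right; blue points have a sense gene of at least 100 FPKM (326 pairs, r = 0.88 and 0.90), grey points a less abundant one, and the dashed line marks equal change. The loci over Saa2 and Lcn2 move with their genes, and those over Gpr108, Kif1b and Sdhc lie near 0 on the gene axis.

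Between IPO and sham livers few loci differed in the test. With limma, 0 of 722 loci rose and 1 fell, where 0.121% and 0.0519% of all 5779 loci were called, and 111 of the 722 had an unadjusted p under 0.05. The median log2 fold change was -0.26 over the 722 and -0.05 over all loci, and it was 0.03 without sham replicates 1 and 2. Of the sense genes 4 rose and 0 fell, where 0.124% and 0.104% of all genes were called, and 67 had an unadjusted p under 0.05. The 4 calls at sense genes became 1 when IPO replicate 2, IPO replicate 3 or any sham library was left out. Without sham replicate 3 there were 3 calls at loci and without IPO replicate 2 there was 1, none of them the locus called with all libraries, and without any of the others there were 0. The locus called was Gm49668, a lincRNA whose start region is printed above, over the end of Fam120b, a coactivator gene (MSTRG.9441, chr17:15425876-15435017, minus strand). It had 0.884, 0.710 and 0.891 FPKM in the IPO livers, 1.84, 1.98 and 3.06 FPKM in the IR livers, and 2.80, 4.999 and 3.71 FPKM in the sham livers. The IPO libraries were below all others, and the IR libraries overlapped the sham libraries. The log2 fold change of IPO over sham was -1.68 ± 0.23 (s.e.) (limma adjusted p = 0.0367), Fam120b had -0.23 ± 0.13 (s.e.) (limma adjusted p = 0.511), and the ratio had -1.44 ± 0.19 (s.e.) (limma adjusted p = 0.102). The locus also fell in IPO relative to IR at a log2 fold change of -1.05 ± 0.23 (s.e.) (limma adjusted p = 0.0147), a call lost without IPO replicate 2 (limma adjusted p = 0.0522). Its call against sham was lost when any 1 of the 9 libraries was left out, with limma adjusted p from 0.0505 without IR replicate 1 to 0.153 without IPO replicate 2.

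Others with small p in that comparison did not pass. The locus over the end of Tnxb, an extracellular matrix gene, which GENCODE lists as a Cyp21a2 pseudogene (MSTRG.9849), had 1.28, 0.410 and 0.504 FPKM in the IPO livers, 0.873, 1.13 and 0.456 FPKM in the IR livers, and 3.92, 2.73 and 4.42 FPKM in the sham livers. Its log2 fold change of IPO over sham was -1.81 ± 0.32 (s.e.) (limma adjusted p = 0.0759), and it fell in IR relative to sham at -1.68 ± 0.32 (s.e.) (limma adjusted p = 0.0121), a call lost without sham replicate 1 (limma adjusted p = 0.0521). The locus over the end of Kin, a DNA-binding protein gene (MSTRG.11993), had 7.15, 12.8 and 11.2 FPKM in the IPO livers, 4.08, 3.10 and 2.75 FPKM in the IR livers, and 4.91, 2.81 and 2.73 FPKM in the sham livers. Its IPO libraries were above all others, with a log2 fold change of 1.45 ± 0.27 (s.e.) against sham (limma adjusted p = 0.0906) and a rise at 1.49 ± 0.27 (s.e.) against IR (limma adjusted p = 0.00651). The loci over Cisd3, Eif4ebp3 and Tat had log2 fold changes of -1.39, -1.93 and -0.99, and those over Fam32a, Gclc, Trim44 and S100a10 of 0.89, 1.26, 0.73 and 1.16, with limma adjusted p from 0.104 to 0.159.

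The ratio of locus to sense gene compares both changes in one test, on values with 0.5 FPKM added. This constant shrinks the change of a low locus more than that of an abundant gene. Equal changes of both can therefore give a ratio that differs between groups. Over 696 pairs with limma, it was called higher at 3 and lower at 3 in IR relative to sham, where 0.364% and 0.193% of all 4672 pairs of a locus and a gene were called, or 0.557% together. In IPO relative to IR it was called higher at 2 and lower at 4, where 0.171% and 0.300% of all pairs were called, or 0.471% together. In IPO relative to sham it was called lower at 1 and higher at 0, where 0.0428% and 0.00% of all pairs were called and 111 of the 696 had an unadjusted p under 0.05. Its median change was -0.21, -0.07 and -0.27 in those comparisons. Among all loci tested, 3978 overlapped a gene on the same strand and 748 were antisense to one. Most of the 4672 pairs are therefore same-strand pairs, and the shares over all pairs are not those of antisense pairs alone. A ratio between tables keeps any scaling of a library that differs between them. Without sham replicate 3 the calls were 69 in IR relative to sham and 33 in IPO relative to sham, against 6 and 1 with all libraries. Leaving out each of the other libraries except IR replicate 3 gave 2 or 3 calls in IR relative to sham. In IPO relative to IR the calls were 12 without IR replicate 3, 6 without sham replicate 3 and 1 to 3 without any of the others. With 0.1 or 1 FPKM added in place of 0.5, the calls were 3 or 12 in IPO relative to IR. They were 4 or 7 in IR relative to sham, and 1 with either constant in IPO relative to sham.

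Other pairs were called on the ratio while the locus alone did not pass. Zbtb20, a transcriptional repressor active in hepatocytes, had 9.27, 7.46 and 8.21 FPKM in the IPO livers, 2.89, 3.19 and 4.88 FPKM in the IR livers, and 8.67, 7.34 and 8.46 FPKM in the sham livers. Gm19522 inside it, whose start region is printed above, had 0.919, 0.847 and 0.811 FPKM in the IPO livers, 1.24, 1.67 and 1.32 FPKM in the IR livers, and 0.939, 0.648 and 0.678 FPKM in the sham livers. The gene was lowest and the locus highest in the IR libraries, without overlap. The ratio rose in IR relative to sham at a log2 fold change of 1.69 ± 0.20 (s.e.) and fell in IPO relative to IR at -1.59 ± 0.20 (s.e.) (limma adjusted p = 0.0316 and 0.03). Zbtb20 fell in IR relative to sham and rose in IPO relative to IR (limma adjusted p = 0.00817 and 0.00408), and the locus alone did not pass (limma adjusted p = 0.0801 and 0.113). Inside Eif5b, a translation initiation factor gene (MSTRG.230), the locus had 0.975, 0.729 and 0.631 FPKM in the IPO livers, 1.18, 1.62 and 1.59 FPKM in the IR livers, and 0.686, 0.826 and 0.839 FPKM in the sham livers. Its IR libraries were above all others, and its ratio rose in IR relative to sham at a log2 fold change of 0.71 ± 0.10 (s.e.) (limma adjusted p = 0.0436) and fell in IPO relative to IR at -0.72 ± 0.10 (s.e.) (limma adjusted p = 0.0468). A locus of 293 bases inside Spopl, a ubiquitin ligase adaptor gene (MSTRG.12128), had ratio changes of 0.49 ± 0.07 (s.e.) in IR relative to sham and -0.52 ± 0.07 (s.e.) in IPO relative to IR on the log2 scale (limma adjusted p = 0.0361 and 0.03). Gm20708, a predicted gene, had 37.3, 39.7 and 32.1 FPKM in the IPO livers, 42.8, 62.1 and 56.3 FPKM in the IR livers, and 0.399, 0.660 and 0.444 FPKM in the sham livers. The locus inside it (MSTRG.4819) had 1.09, 0.955 and 1.29 FPKM in the IPO livers, 0.648, 2.17 and 3.09 FPKM in the IR livers, and 1.74, 2.55 and 1.84 FPKM in the sham livers, and the ratio fell relative to sham at a log2 fold change of -5.86 ± 0.31 (s.e.) in IPO and -5.93 ± 0.31 (s.e.) in IR (limma adjusted p = 0.0015 and 0.000852) while the locus did not pass. Of these ratio calls, both over Gm20708 were kept when any 1 library was left out. Those over Zbtb20, Eif5b and Spopl were lost when any IPO library, IR replicate 1 or 2 or sham replicate 1 or 2 was left out. IR replicate 3 did the same to both calls over Eif5b and to that over Spopl in IR relative to sham, and sham replicate 3 to that over Eif5b in IPO relative to IR. The limma adjusted p then ran from 0.0535 to 0.179.

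Genes of other liver functions carried many antisense loci. Of all 5779 loci, 3.31% were called higher and 9.33% lower in IR relative to sham, and 11.9% higher and 8.03% lower in IPO relative to IR, and the counts below stand beside those shares. Of 49 secreted protein and coagulation genes in the gene table, 36 carried a locus, at a median of 0.861% of the sense gene. With limma 0 of these 36 loci were called in any comparison, and 6, 2 and 4 had an unadjusted p under 0.05 in IR relative to sham, IPO relative to IR and IPO relative to sham. Of 61 cytochrome P450 and drug metabolism genes 18 carried a locus, with 2 lower in IR relative to sham and 1 higher and 1 lower in IPO relative to IR. Of 43 amino acid, glucose and urea genes 22 did, with 4 lower in each of those comparisons and none higher. The locus spanning Mat1a, the enzyme of S-adenosylmethionine synthesis (MSTRG.6987), had 12.7, 14.9 and 14.8 FPKM in the IPO livers, 13.6, 13.1 and 12.9 FPKM in the IR livers, and 26.9, 22.9 and 19.1 FPKM in the sham livers. Its IR libraries were below all sham libraries, with a log2 fold change of -0.76 ± 0.15 (s.e.) (limma adjusted p = 0.0133), and Mat1a had -0.24 ± 0.14 (s.e.) (limma adjusted p = 0.266). The locus over the end of Ass1, a urea cycle enzyme (MSTRG.12341), fell in IPO relative to IR at -0.86 ± 0.22 (s.e.) (limma adjusted p = 0.027). The call over Mat1a was lost without sham replicate 1 or sham replicate 2 (limma adjusted p = 0.0544 and 0.0534), and that over Ass1 without IPO replicate 1 or IPO replicate 3 (limma adjusted p = 0.0911 and 0.0886). Of 46 lipid, bile acid and cholesterol genes 13 carried a locus, with 1 higher and 1 lower in each of those comparisons.

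Single loci of these lists stayed near 1% of genes that are among the most abundant in liver. The locus over the end of Cyp2e1, which oxidises ethanol and paracetamol (MSTRG.22184, chr7:140763792-140775022, minus strand), had 14.9, 16.1 and 16.3 FPKM in the IPO livers, 22.2, 23.2 and 14.8 FPKM in the IR livers, and 26.9, 25.2 and 21.2 FPKM in the sham livers. Its IPO and IR libraries overlapped, and all IPO libraries were below all sham libraries without passing (log2 fold change -0.61, limma adjusted p = 0.227). The locus inside Cyp3a11, the main drug-metabolising cytochrome (MSTRG.18826), had 7.63, 7.005 and 8.11 FPKM in the IPO livers, 4.32, 9.01 and 9.53 FPKM in the IR livers, and 20.6, 15.1 and 9.62 FPKM in the sham livers. Both IPO and IR lay below sham without overlap, yet neither difference passed (limma adjusted p = 0.295 and 0.087). The locus over the end of Cyp4a10, a fatty acid hydroxylase (MSTRG.16198), averaged 3.27 ± 1.45 FPKM in IPO, 5.87 ± 0.733 FPKM in IR and 9.69 ± 3.64 FPKM in sham (SD, n = 3 each) and did not pass, while Cyp4a10 fell in IPO relative to IR at a log2 fold change of -1.20 ± 0.34 (s.e.) (limma adjusted p = 0.0344). That gene call was lost when IPO replicate 1 or 2 or IR replicate 1 or 2 was left out (limma adjusted p from 0.0559 to 0.0965).

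Neither of the next loci, over lipid genes, was called in any comparison. The locus spanning Slc27a2, a fatty acid transporter (MSTRG.13225), averaged 1.98 ± 0.142 FPKM in IPO, 2.97 ± 0.792 FPKM in IR and 3.18 ± 0.856 FPKM in sham (SD, n = 3 each), and that over Scd1, an enzyme of desaturation, averaged 2.29 FPKM over all libraries. Among the other named members, the loci over Ahsg (fetuin A) and Gnmt (methyl group metabolism) averaged 26.4 and 10.3 FPKM, at 0.795% and 1.10% of their genes, and were not called in any comparison.

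Transcription factors of the hepatocyte carried antisense RNAs with names of their own. Of 24 such genes 3 carried 5 loci, and with limma 0 of these 5 were called in any comparison, where 1, 2 and 0 had an unadjusted p under 0.05. Prox1os, over the start of Prox1, a regulator of hepatocyte identity (MSTRG.1721, chr1:190170296-190217276, plus strand), had 4.46, 4.29 and 3.25 FPKM in the IPO livers, 4.86, 4.82 and 3.73 FPKM in the IR livers, and 4.50, 5.35 and 5.002 FPKM in the sham livers. The IR values overlapped those of both other groups and the IPO values lay below all 3 sham values, with no call, whereas Prox1 averaged 24.4 ± 4.50 FPKM in IPO, 13.6 ± 3.36 FPKM in IR and 32.3 ± 2.70 FPKM in sham (SD, n = 3 each) and fell in IR relative to sham at a log2 fold change of -1.25 ± 0.20 (s.e.) (limma adjusted p = 0.00662). The ratio over Prox1 did not pass (limma adjusted p = 0.141). Hnf4aos, over the start of Hnf4a, a central nuclear receptor of the hepatocyte (MSTRG.13666, chr2:163493807-163541692, minus strand), had 5.59, 3.52 and 3.51 FPKM in the IPO livers, 1.73, 3.71 and 2.09 FPKM in the IR livers, and 2.81, 2.96 and 4.81 FPKM in the sham livers and stood at 1.56% of Hnf4a. A second locus inside Hnf4a (MSTRG.13671) averaged 2.07 ± 0.195 FPKM in IPO, 1.39 ± 0.631 FPKM in IR and 2.12 ± 1.07 FPKM in sham (SD, n = 3 each). Of 32 immediate early genes 4 carried a locus (Zfp36l1, Mafk, Junb and Zfp36), which averaged 1.33, 1.22, 1.07 and 1.07 FPKM, with limma calling 0 in any comparison and 0, 1 and 0 at an unadjusted p under 0.05. None of 19 circadian clock genes and none of 39 markers of non-parenchymal cells in the gene table carried one. No gene of these 2 lists reached a mean of 100 FPKM, above which 69.4% of autosomal genes carried a locus. The share was 11.9% from 20 to 100 FPKM, 3.26% from 5 to 20, 1.96% from 1 to 5 and 1.59% below 1. These zeros are therefore not read as a trait of the 2 lists.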

How the data were processed

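Liver RNA of 9 libraries was sequenced after a stranded preparation, per the labels' protocols. The authors deposited FPKM values for annotated genes and for unannotated loci in 2 tables, with coordinates in mm10 per the submitters' processing notes. Not given in the sources used here are the aligner, the counting program, its strand setting and the annotation. Depth is unknown because no counts were used. Columns were mapped to libraries by their names.

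Values were tested as log2(FPKM + 0.5) with limma 3.58.1 in R 4.3.3 (moderated test with a mean trend, two-sided), with all 9 libraries and 6 residual degrees of freedom in one fit each for 5779 loci, 9649 genes and 4672 ratios of locus to gene. Features under a mean of 1 FPKM were left out. Benjamini-Hochberg adjustment ran over each whole table, and a call is an adjusted p under 0.05. Fold changes on this scale understate the change of low loci. On simulated data with 200 changed loci in IR against sham, the loci fit recovered 59% of 2-fold and 91% of 4-fold changes, and the ratio fit 83% and 96%. Of the simulated calls, 7.41% in the loci fit and 3.76% in the ratio fit were at unchanged loci. The changes were set on the tested log2 scale with independent noise at each locus. No difference shared by a whole library was simulated, so these rates need not hold for the real libraries. Percentages of the sense gene are ratios of mean FPKM. Exons and same-strand genes came from GENCODE M21, which shared 11212 of the 11229 gene identifiers, and start windows from RefSeq (GRCm38.p6). Transcript identity was computed with edlib 1.3.9.post1, and tables were joined with pandas 2.3.3.

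The text names, in each comparison, the 10 largest rises and falls among called loci whose groups do not overlap and whose higher group averages at least 1 FPKM (for IPO against sham the 5 smallest p in each direction), pairs with a called ratio, pairs called in opposite directions, the 10 highest loci and the 4 highest loci of each of 9 lists of sense genes. The members and the lists were chosen with earlier results of these data known. Alternatives changed the added constant, the filter, the scaling, the replicate block, the description number as a term and the libraries used. The description number in the labels was 321 for IPO, 315 for IR and sham replicate 2, and 316 for sham replicates 1 and 3, with a meaning not given in the sources used here. Every IPO library and no other carried 321, so a difference tied to this number cannot be told apart from IPO. The description number was therefore a term only for IR relative to sham, and both comparisons with IPO stand without it. Start and end windows of the other loci were not analysed here. A few loci that this rule names are not reported here.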

Additional observations from a re-analysis of the deposited data

How the results depend on the processing

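Of 220 other settings of the main results, 149 left a count within 1.5 times its value, or a median within the spread between libraries (1 SD), 69 moved it further, and 2 medians turned their sign. Of 972 repeats for single named loci, 855 kept direction and call, 115 lost the call and 2, over Gm20708 and Spopl with no call in IR relative to sham, turned their sign without IR replicate 1. The cause of these changes was not tested.

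For IR relative to sham, 78 loci were called, and the count was 49 with a filter at 2 FPKM, 43 with a replicate block, 27 with the description number as a term and 1 without sham replicates 1 and 2 together, an alternative chosen after seeing the data. Leaving out 1 library gave 22 to 122. The sense gene count of 84 was 28 with the description number and 6 without both sham libraries (36 to 108 without 1 library). The ratio count of 6 was 1 with the filter at 2 FPKM and 1 with the block (2 to 69 without 1 library). The median log2 fold change of -0.19 was -0.40 with the description number and 0.0917 without both sham libraries (-0.34 to -0.10 without 1 library).

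For IPO relative to IR, the locus count of 76 was 45 with the filter at 2 FPKM (43 to 93 without 1 library), and the sense gene count of 153 was 73 to 159 without 1 library. The ratio count of 6 was 3 with 0.1 FPKM added, 12 with 1 FPKM added, 1 with the filter at 2 FPKM, 1 with the block and 3 without both sham libraries (1 to 12 without 1 library). The median of -0.06 was -0.09 to -0.01 without 1 library.

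For IPO relative to sham, the locus count of 1 was 0 with the block, 0 without both sham libraries and 0 over loci with no same-strand GENCODE gene (0 to 3 without 1 library). The ratio count of 1 was 0 with the filter at 2 FPKM and 2 without both sham libraries (1 to 33 without 1 library). The sense gene count of 4 was 1 with the block and 2 without both sham libraries (1 to 5 without 1 library). The median of -0.26 was 0.0317 without both sham libraries (-0.41 to -0.17 without 1 library).

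Replicate numbers recur in the 3 groups, but the labels do not tie them to a shared animal or day. The deviations of same-numbered libraries correlated between -0.162 and 0.0611 over 9 pairs, none over 0.1, and 1 of 9 libraries correlated best with its own number, so the block of 43 against 78 loci is given as a setting and not as a paired result.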

Other observations

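The loci in the next 2 paragraphs were chosen after their values were seen. 3 loci lay in introns of Grk5, a kinase of G protein-coupled receptors, and all were called lower in IR than in sham and higher in IPO than in IR. The first of them (MSTRG.11904, chr19:60925714-60926167, minus strand) had 18.3, 23.8 and 11.4 FPKM in the IPO livers, 1.78, 6.87 and 7.01 FPKM in the IR livers, and 22.9, 16.3 and 19.5 FPKM in the sham livers. The IR libraries lay below all others. Their log2 fold changes of IR over sham were -1.99, -2.02 and -1.36 (limma adjusted p = 0.023, 0.0421 and 0.00585), whereas Grk5 had 0.14 (limma adjusted p = 0.689). Without sham replicates 1 and 2 together 0 of the 3 were called lower in IR, with 3 at an unadjusted p under 0.05 and a median log2 fold change of -1.997. Leaving out 1 library kept 1 (sham replicate 1) to 3 (IR replicate 2) of those calls, and 1 (IPO replicate 1 or IPO replicate 2) to 3 of the calls in IPO relative to IR. Of all 5779 loci, 9.33% were called lower in IR than in sham and 11.9% higher in IPO than in IR. The 3 loci lie next to each other in 1 gene and are not independent.

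Over Mup genes, which encode secreted major urinary proteins, 7 of 9 loci were called lower in IR than in sham with limma, at a median log2 fold change of -1.40 over the 9 (range -1.71 to -0.90). Of all 5779 loci, 9.33% were called lower in that comparison. With limma 0 of the Mup sense genes and 0 of the Mup ratios were called, and 2 and 6 had an unadjusted p under 0.05. Over all members, 180 of 677 sense genes and 135 of 696 ratios had one. The 7 calls became 0 without sham replicate 1, sham replicate 2 or IR replicate 2, 1 without IR replicate 1 or IPO replicate 3, and 2 without IPO replicate 1 or IPO replicate 2. Without sham replicates 1 and 2 together limma called 0, with 0 at an unadjusted p under 0.05 and a median of -0.44. In IPO relative to IR limma called 0 of the 9, with 0 at an unadjusted p under 0.05. In IPO relative to sham the median was -1.20 and limma called 0, with 8 of the 9 loci and 7 of their ratios at an unadjusted p under 0.05. Over all members, 111 of 722 loci and 111 of 696 ratios had one. Without both sham libraries the median of the 9 was -0.13. The Mup loci stood at 0.419% to 2.23% of their genes. Mup genes are near-identical copies in one cluster, so reads may be shared between members and these values are uncertain.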
